A study of Mus musculus with 6 samples.

Results

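Malat1 is a long noncoding RNA, and the data described here are its transcripts in 6 single cells of the mouse brain, sequenced as whole cDNA molecules on the PacBio instrument. The members are all transcripts that the deposited table assigns to Malat1, 895 of 36659 transcripts, and Malat1 is 1 of 6357 gene names in that table. A transcript is a group of reads of 1 cell and gene that share a unique molecular identifier (UMI), a random tag of 6 bases that marks each cDNA molecule before amplification. They were chosen by gene name, and the gene was selected on its share of transcripts, the positions of its ends and the gaps in its alignments, so these are given as descriptions without a test.

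The cells came from CD-1 mice, and the labels give the developmental stage of every cell as Embryo. They form 3 groups of 2 cells: Oligo1, immature oligodendrocytes; Oligo5, mature myelinating oligodendrocytes; and a pair that the labels call oligodendrocyte progenitor cells and the text of the study calls vascular and leptomeningeal cells (VLMCs), fibroblast-like cells of the meninges and vessel walls. No treatment or genotype is given for any cell. The text of the study gives no age for the cells and names hippocampus and cortex as their source. It calls the Oligo5 cells mature, so the stage in the labels was not taken as established. The animal of a cell is not named, which makes each cell type a single sample, and no test was run between cell types. The cells held 2338 to 11483 transcripts, and each p-value below measures the spread between these 6 cells only.

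Of 10 VLMC marker genes, 8 had transcripts in VLMC-1 and 9 in VLMC-2 (4.58% and 5.82% of the transcripts of the cell), and none had any in the 4 oligodendrocytes. At 3 counts of the total, a gene without a count may still reach 0.128% in VLMC-1 and 0.0509% in the shallowest oligodendrocyte. The 10 oligodendrocyte markers made up 11.8% to 16.0% of each oligodendrocyte, 0% of VLMC-1 and 0.491% of VLMC-2, where Trf alone was found. Of 10 progenitor markers, 1 was found in each VLMC (0.214% and 0.0640%), against 1 to 3 in each oligodendrocyte (0.0161% to 0.314%). This list therefore did not separate the pair from the oligodendrocytes. The VLMC markers, found in this pair alone, go against its label, and the pair is called VLMC here. Neuron markers were found only in Oligo5-2, in 7 of 10 genes (43 transcripts, 0.692%). The 6 astrocyte markers summed to at most 0.448% of a cell (VLMC-2), the 6 endothelial markers to at most 0.299% (VLMC-2), and the 6 microglia markers were at 0 in every cell. The part that other cells played in the values of Oligo5-2 was not tested.

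Malat1 stays in the nucleus, where it is enriched at nuclear speckles, the bodies that store splicing factors. Its 3′ end is not made by the usual cleavage and polyadenylation: RNase P cuts the primary transcript upstream of a tRNA-like element, and the mature end is protected by a triple helix instead of a poly-A tail. The cDNA method used here, STRT, primes reverse transcription with oligo-dT and adds the 5′ tag by template switching, and the authors kept only reads that held a poly-A stretch.

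In the GENCODE M21 annotation (GRCm38) the full-length Malat1 transcript (ENSMUST00000172812.2) is 1 exon of 6983 bases on the minus strand of chromosome 19, from 5795690 to 5802672. Positions below count from 1 at its annotated 5′ end, so every site named lies in that exon. Recurrent ends were found near positions 231, 722 and 876, and the windows around them carry the pattern described below. In the first 3 sequences the capitals mark the 20 bases that follow the most frequent end position, and all are written 5′ to 3′ on the strand of the gene from GENCODE.
End near 231, chr19:5802422-5802451: taaacagtttGAAAAAGGAAATGAGGAGAA
End near 722, chr19:5801931-5801960: ctagtatttgGAGAAAGAAGATTAGAAAAT
End near 876, chr19:5801777-5801806: gccgaagaatAGAAGATAGAAAGAAGCAAG
The 5′ end is shown because most transcripts began there. Its capitals mark the transcript from position 2 on, and the bases before position 1 come from the RefSeq promoter table (GRCm38.p6).
Start, chr19:5802657-5802686: tccgggctctgcgtcAGGCATTCAGGCAGC
The longest run of A in the gene and a pair of A-rich windows at which no transcript ended are shown for contrast. Capitals mark the run in the former and the last 20 bases in the others.
Longest A run, chr19:5795980-5796009: ccctagctttAAAAAAAAAAAAgcaaaaga
Without ends, chr19:5799246-5799275: tgaatgagtgATAAGTAAAGGCAGAAAAAA
Without ends, chr19:5799156-5799185: ctgcatatgcAAAAATTTAAGCAAATGAAA

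Malat1 was abundant in every cell of all 3 types. VLMC-1 had 65 Malat1 transcripts (2.78% of the cell) and VLMC-2 had 101 (2.15%). Oligo1-1 had 315 (2.74%) and Oligo1-2 had 198 (3.28%). Oligo5-1 had 136 (2.31%) and Oligo5-2 had 80 (1.29%). The mean share was 2.42% ± 0.683 (SD, n = 6 cells). Oligo1-2 was the highest and Oligo5-2 the lowest, and the Wilson 95% interval of Oligo5-2 (1.04% to 1.60%) lay below those of the other 5 cells, the nearest of which was VLMC-2 (1.78% to 2.61%). The intervals of VLMC-1, VLMC-2 and Oligo5-1 overlapped one another. All intervals cover counting error only. Malat1 was the second most abundant gene name in 5 cells and the fourth in Oligo5-2. The most abundant name in the VLMCs was Apod, a lipid-binding lipocalin. The 895 transcripts were made from 1664 reads, 1.86 reads per UMI, and 1.97 was the value for all other genes.

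**Figure D1:**
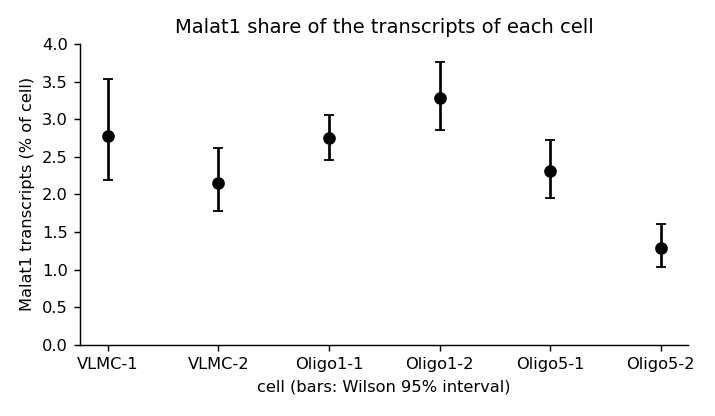
Malat1 transcripts as a percentage of all transcripts of each of the 6 cells (y axis), with the Wilson 95% interval as bars. The cells lie between 1.29% (Oligo5-2) and 3.28% (Oligo1-2).

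Most Malat1 transcripts began at the annotated 5′ end. The alignment started within positions 1 to 10 in 753 of 895 transcripts (84.1%), and at position 2 alone in 642. The share within positions 1 to 10 was 92.3% and 92.1% for the first and second VLMC, 82.5% and 84.3% for the Oligo1 cells, and 82.4% and 76.3% for the Oligo5 cells. Both VLMCs were above the 4 oligodendrocytes, although the interval of VLMC-1 (83.2% to 96.7%) overlapped those of all 4. Position 2 was the start in 81.5% and 78.2% of the transcripts of the VLMCs, in 68.6% and 72.2% in Oligo1 and in 73.5% and 63.8% in Oligo5.

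The other 142 starts were scattered. They fell at 104 positions. Of them 5, at positions up to 15, joined the site at the 5′ end, and the other 137 formed 48 sites, of which 16 were found in 2 or more cells. The largest of these sites, at positions 52 to 86, held 33 transcripts from all 6 cells, and 18 of the 33 were from Oligo1-1. The next sites held 8 transcripts (positions 23 to 34, 4 cells), 7 (141 to 159, 2 cells) and 7 (567 to 577, 4 cells). Of the 142, 119 ended at a recurrent end site and 12 began after position 1000.

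Starts at an annotated 5′ end were less frequent in the other genes of the same cells. Within 10 bases of any annotated start of their gene began 18.7% and 24.7% of the other transcripts of the VLMC pair, 22.7% and 3.64% of those of the Oligo1 pair, and 9.07% and 26.5% of those of the Oligo5 pair. Since Malat1 cDNAs were short, the comparison was also made among transcripts of 600 to 900 aligned bases, a range chosen after the lengths had been seen. There the share of Malat1 was 97.8%, 95.5%, 88.3%, 95.6%, 94.9% and 85.5% in the same order of cells, and that of the other genes 16.3%, 27.8%, 22.8%, 4.35%, 12.2% and 25.6%. The share of Malat1 was above that of the other genes in each of the 6 cells, and Oligo1-2, with the lowest share among other genes, had one of the higher shares for Malat1. This range does not make the genes alike. Malat1 cDNAs mostly ended near 722 or 876, so that 600 to 900 bases reach back to its start. Of the other transcripts of any length, 56.8% to 68.1% by cell ended within 20 bases of an annotated 3′ end. Such a cDNA of 600 to 900 bases reaches an annotated start only if the spliced RNA is that short.

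**Figure D2:**
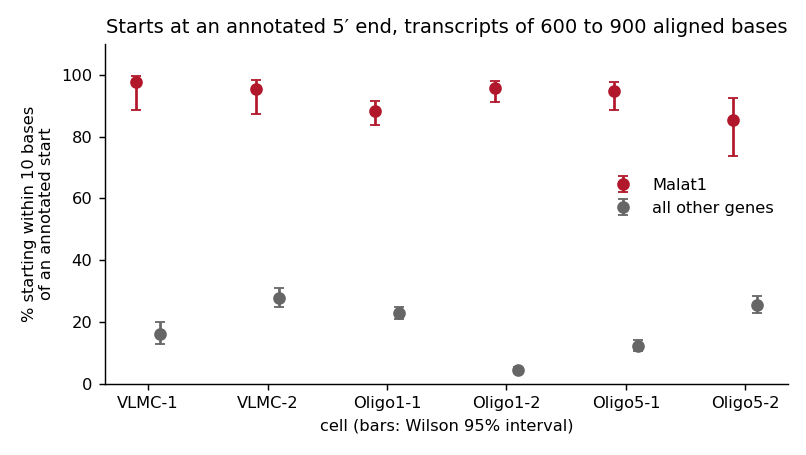
Share of transcripts of 600 to 900 aligned bases that began within 10 bases of an annotated start (y axis, percent) for Malat1 and for all other genes in each cell, with Wilson 95% intervals. Malat1 lies between 85.5% and 97.8% and the other genes between 4.35% and 27.8%. The length range does not match the genes for the distance between their ends and an annotated start.

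At the other end, nearly all Malat1 cDNAs stopped early in the gene. Ends no more than 5 bp from the next one were joined into a site, and a site with 10 or more transcripts was called recurrent. There were 24 sites, of which 3 were recurrent, and these held 841 of the 895 transcripts (94.0%) and were each found in all 6 cells. The site near 722 (positions 714 to 728, chr19:5801945-5801959) held 535 transcripts, 59.8% of the total, with 126 at position 722 itself. The site near 876 (866 to 900, chr19:5801773-5801807) held 197, or 22.01%, and was the widest. The site near 231 (228 to 237, chr19:5802436-5802445) held 109, or 12.2%, with 56 at position 231. A poly-A tail that follows A bases of the gene leaves the exact end uncertain by a few bases, so the results rest mainly on sites.

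Start and end together gave 237 distinct pairs of positions. The most frequent pairs of positions were 2 to 722 with 94 transcripts, 2 to 723 with 92, 2 to 725 with 88 and 2 to 724 with 72, each found in all 6 cells. The pair 2 to 231 was found 48 times, and 2 to 876 was found 18 times in 5 cells. In total 722 of 895 transcripts (80.7%) both began within positions 1 to 10 and ended at a recurrent site, with 92.3% and 92.1% in the VLMCs and 72.5% to 81.8% in the oligodendrocytes. The median aligned length was 722 bases, and 720 to 722 in each cell, against a length of 6983 bases in the annotation.

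**Figure D3:**
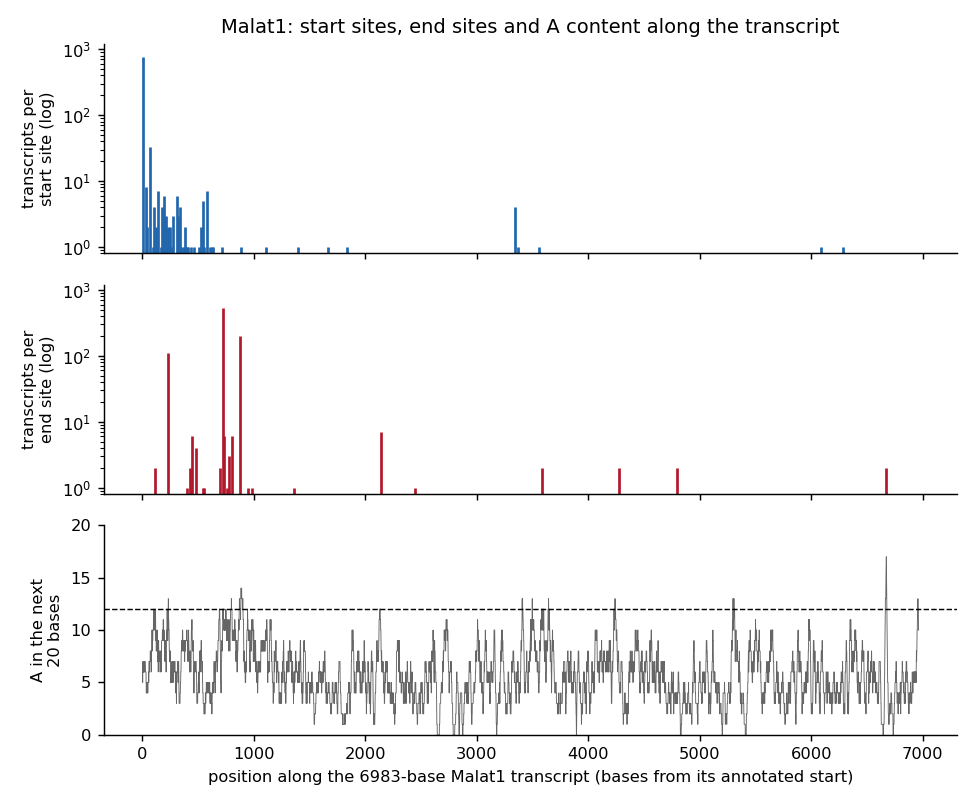
Start sites (top) and end sites (middle) at their most frequent position along the transcript, with the number of transcripts at each on a log axis, and the number of A among the 20 bases after each position (bottom, with a dashed line at 12). Starts gather at the 5′ end, and 841 of 895 ends fall at the 3 sites near 231, 722 and 876.

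All cells used the 3 sites, with the site near 722 first in every cell and the other sites in different proportions. The site near 722 took 43.1% and 49.5% of the transcripts of VLMC-1 and VLMC-2, 61.3% and 64.6% in Oligo1 and 62.5% and 63.8% in Oligo5, so both VLMCs were below the 4 oligodendrocytes over all UMIs. The site near 231 took 23.1% and 30.7% in the VLMCs, 6.67% and 7.58% in Oligo1 and 11.8% and 13.8% in Oligo5, with both VLMCs above the rest. The site near 876 took 32.3% and 19.8% in the VLMCs, 23.8% and 23.2% in Oligo1 and 18.4% and 12.5% in Oligo5, and here the cell types overlapped. With 2 cells of a type from unnamed animals, these are differences between cells.

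**Figure D4:**
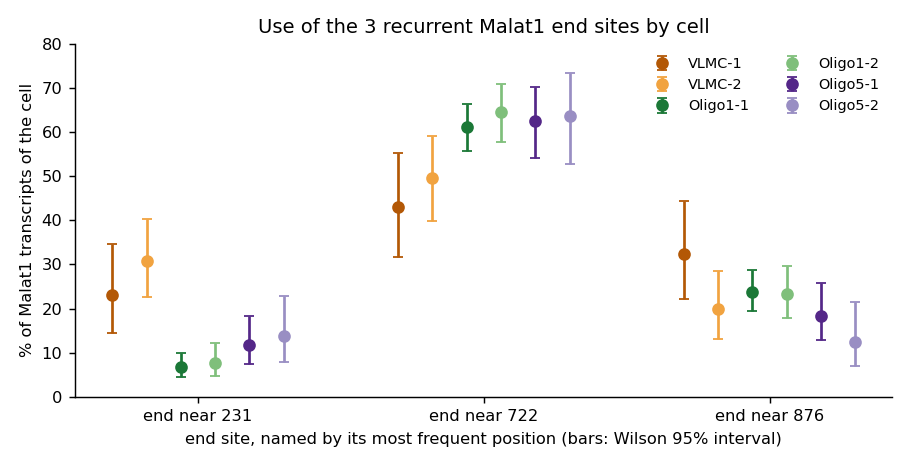
Percentage of the Malat1 transcripts of each cell that ended at each recurrent site (y axis), with Wilson 95% intervals. The site near 722 lies at 43.1% and 49.5% in the VLMCs and at 61.3% to 64.6% in the oligodendrocytes, and the site near 231 at 23.1% and 30.7% against 6.67% to 13.8%.

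The site near 231 was mostly found in UMIs that had been read once. Of 540 such transcripts 99 ended there (18.3%), and of 355 transcripts with 2 or more reads 10 did (2.82%). The site held 45.2% of the single-read transcripts of VLMC-1 and 54.2% of those of VLMC-2, but 2.94% (1 of 34) and 9.43% (5 of 53) of those with 2 or more reads. In Oligo1 it held 10.4% and 10.3% of single-read transcripts and none of the 113 and 53 with more reads (Wilson upper limits 3.29% and 6.76%). In Oligo5 it held 23.6% and 16.9% of single-read transcripts against 3.70% and 4.76%. Within UMIs of 2 or more reads, the intervals of VLMC-1 (0.521% to 14.9%) and VLMC-2 (4.10% to 20.3%) therefore overlapped those of Oligo5-1 (1.27% to 10.3%) and Oligo5-2 (0.846% to 22.7%). The order of cells at the site near 722 also changed with the reads. Among single-read transcripts it held 29.0% and 31.3% in the VLMCs and 58.2% to 66.1% in the oligodendrocytes. Among transcripts with 2 or more reads it held 55.9% in VLMC-1, 66.04% in VLMC-2, which was then the highest cell, and 57.1% to 65.4% in the oligodendrocytes. The site near 722 held 57.2% of all single-read transcripts and 63.7% of the others, and the site near 876 held 19.8% and 25.4%. This split by reads was chosen after the values had been seen. The median aligned length was 230 bases at the site near 231, against 722 and 875 bases at the sites near 722 and 876. Short molecules were removed on a gel before sequencing, with a limit between 230 and 722 bases that applied to molecules with their adapters. Shares at the site near 231 are thus shares of what was left after this step, and the part it played was not tested.

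**Figure D5:**
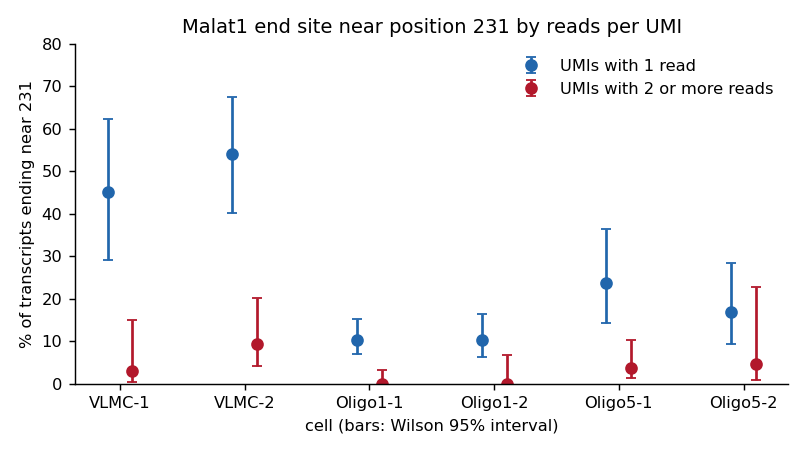
Percentage of Malat1 transcripts that ended near position 231 in each cell (y axis), for UMIs with 1 read and with 2 or more reads, with Wilson 95% intervals. Single-read UMIs lie at 10.3% to 54.2% and UMIs with more reads at 0% to 9.43%.

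The cDNA was sequenced in a short run (5 SMRT cells) and in a run enriched for long molecules (2 SMRT cells). Of the Malat1 transcripts, 728 had reads of the short run only, 53 of the long run only and 114 of both. Malat1 made up 3.49% of the transcripts read only in the short run and 0.499% of those read only in the long run. The share of transcripts read only in the long run was 1.54%, 0.990%, 6.98%, 7.58%, 3.68% and 11.3% for Malat1, and 24.6%, 27.0%, 37.5%, 18.1%, 13.0% and 47.0% for the other genes, in the order of cells VLMC-1 to Oligo5-2. Malat1 was lower in 6 of 6 cells, by a mean of 22.5 percentage points (SD 10.7). The exact sign-flip permutation test over cells, two-sided, gave p = 0.0312, the smallest it can give with 6 cells, and 0.0625 after Benjamini-Hochberg adjustment over 4 such tests, so it did not pass the threshold of 0.05. Among transcripts of 600 to 900 bases the mean difference was -2.28 points (exact permutation p = 0.219). The site near 231 held 105 of the 728 transcripts of the short run, 3 of the 53 of the long run and 1 of the 114 in both, and the site near 876 held 134, 20 and 43.

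The site near 876 was made of groups of positions that differed in weight between cells. In Oligo1-1, 29 of its 75 transcripts ended at 875 or 876 and 13 from 882 to 885, and in Oligo1-2 14 and 12 of 46 did. In VLMC-1 none of 21 ended at 875 or 876 and 12 ended from 882 to 885, and in VLMC-2 the numbers were 4 and 9 of 20. Oligo5-1 had 5 and 10 of 25, and Oligo5-2 had 4 and 1 of 10. After position 880 lay 76.2% and 70.0% of the ends of the VLMCs, 37.3% and 37.0% of those of Oligo1, 56.0% of those of Oligo5-1 and 1 of the 10 of Oligo5-2. The boundary at 880 was chosen after the values had been seen. The positions compared here lie only a few bases apart, near the 5 bp within which the authors treated transcript ends as uncertain. The bases between them are not all A. The cells of the VLMC pair lay close together, as did those of the Oligo1 pair. The Oligo5 cells had more distant values whose intervals overlapped, with 37.1% to 73.3% for Oligo5-1 and 1.79% to 40.4% for Oligo5-2. Intervals of different cell types overlapped as well. That of VLMC-2 (48.1% to 85.5%) overlapped those of both Oligo1 cells, and those of both VLMCs overlapped that of Oligo5-1.

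The recurrent ends lay in front of A-rich and purine-rich sequence without a long run of A. At each of the 3 most frequent positions, 12 of the next 20 bases were A, exactly the minimum used below for that window, and 19, 17 and 18 were A or G at 231, 722 and 876. Of the 895 transcripts, 722 (80.7%) were followed by 12 or more A in 20 bases, a property of 2.08% of the 6963 positions of the gene with such a window. Windows with 17 or more A or G followed 820 transcripts (91.6%) and 2.25% of the positions of the gene (8.70% of those up to 1000), a limit chosen after the sequences had been seen. A run of 6 A within the 20 bases followed 11 transcripts (1.23%). The first 1000 bases of the gene are 38.2% A, the whole gene is 28.6% A, and 6.80% of the positions up to 1000 but 1.29% of the later ones had 12 or more A in the next 20.

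Whether ends of Malat1 lay more often at A-rich sequence than ends of other genes was tested in each cell, with 7 or more A in the 10 bases after the end as the measure. Only ends with 20 bases of annotated transcript after them could be used, which leaves out other genes' ends at the annotated 3′ end. The share of Malat1 was 36.9%, 49.5%, 27.9%, 27.8%, 36.0% and 31.3% in the order of cells above, and that of the other genes 27.3%, 29.6%, 31.0%, 35.5%, 35.8% and 38.3%. Malat1 was higher in 3 cells, both VLMCs among them, and lower in 3. The mean difference was 2.00 points (SD 10.8), and no difference beyond the spread between cells was found (exact sign-flip permutation test, two-sided, p = 0.719, adjusted p = 0.719). The direction depended on the window. With 12 or more A in 20 bases, Malat1 was at 72.5% to 92.3% and the other genes at 25.5% to 39.0%, a mean difference of 49.3 points in 6 of 6 cells (exact permutation p = 0.0312, adjusted p = 0.0417). With a run of 6 A in 20 bases, Malat1 was at 0% to 2.94% and the other genes at 19.04% to 24.3%, a mean difference of -21.0 points in 6 of 6 cells (exact permutation p = 0.0312, adjusted p = 0.0417). Both windows had been listed as alternatives to the 10-base measure. For each adjusted p, the p of the window replaced that of the 10-base measure among the 4 tests, and other alternatives were not adjusted for. The same permutation p of 0.0312 gave 0.0625 where a main test reached it, so no call is drawn from 0.0417. Of the 895 Malat1 ends, 841 lay at the same 3 sites in all cells. The 6 cells thus repeat a few windows, and these p-values do not count separate sequences.

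Not every A-rich stretch of the gene carried ends. Positions with 12 or more A in the next 20, joined where no more than 20 bases apart, formed 17 stretches, and transcripts ended at 9 of them. An end within 5 bp of a stretch was counted. Of the 8 stretches before position 1000, 6 held an end, and of the 9 after it 3 did, with 11 transcripts in all. Without that tolerance, 4 of the 17 transcripts that ended after position 1000 were followed by 12 or more A in 20. The longest run, 12 A at positions 6674 to 6685, had 2 transcripts that ended directly before it at 6673, 1 from VLMC-1 and 1 from Oligo5-1. The polyadenylation signals AATAAA and ATTAAA, searched on the strand of the gene from 49 to 5 bases before the end, were absent at the 3 recurrent sites. They occur 4 and 7 times in the whole gene, and such a window holds them at 2.19% and 4.54% of its positions.

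Starts of Malat1 from position 4 on were compared with starts of other genes for G in the sequence just before them, because the oligonucleotide used in template switching ends in G. A window with 2 or more G among the 3 bases before the start was found for 28.6%, 38.5%, 35.6%, 17.5%, 27.6% and 47.8% of the Malat1 transcripts, and for 20.4%, 21.8%, 20.8%, 11.3%, 14.1% and 24.1% of the others, in the order of cells above. Starts at positions 1 to 3 have no such window in the transcript, so these shares rest on 7, 13, 73, 40, 29 and 23 Malat1 transcripts, 185 in all, of which 43 began at positions 4 to 10. Malat1 was higher in 6 of 6 cells, by 13.8 points on average (SD 6.26), with an exact sign-flip permutation p of 0.0312, two-sided, and an adjusted p of 0.0625, which did not pass the threshold. With 3 G required the difference was -3.51 points (exact permutation p = 0.0312, adjusted p = 0.0625), and with each start site counted once it was 7.27 points (exact permutation p = 0.219). At the largest later start site, the most frequent position, 64, was preceded by 2 G in 3 bases. Part of the G-rich starts lay at the annotated 5′ end itself. Positions 5 and 6, where 3 and 17 transcripts began, are each preceded by 2 G in 3 bases. In VLMC-1 the only 2 G-rich starts were those at position 6.

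The share of single-read UMIs was 47.7%, 47.5%, 64.1%, 73.2%, 40.4% and 73.8% for Malat1 and 47.6%, 45.8%, 60.5%, 75.05%, 47.9% and 77.3% for the other genes in the same cells. The mean difference was -1.24 points (SD 3.96), higher in 3 cells and lower in 3, and did not exceed the spread between cells (exact sign-flip permutation test, two-sided, p = 0.562, adjusted p = 0.719).

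Gaps between aligned blocks were rare. Only 4 of 895 transcripts had one (0.447%, Wilson 95% interval 0.174% to 1.14%), found in VLMC-2 (1), Oligo1-1 (2) and Oligo5-2 (1). The gap of VLMC-2 removed 494 bases between positions 195 and 690. Those of Oligo1-1 removed 265 bases between 430 and 696 and 450 bases between 262 and 713. That of Oligo5-2 removed 266 bases between 423 and 690. As placed by the alignment, none began with GT and ended with AG, and the bases repeated at both edges numbered 4, 3, 2 and 0 in this order. Where bases repeat, the gap can be shifted by up to that number without changing the match. Such shifted placements were not searched for GT and AG. All 4 transcripts began at position 2 or 3 and ended at 722, 723 or 876. A shorter GENCODE transcript of Malat1, ENSMUST00000173499.1, runs from position 2 to 757 in 2 exons, and no gap matched its intron. Gaps below 40 bp had been closed by the authors and cannot be seen.

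Beyond the 3 recurrent sites, 54 transcripts ended at 21 sites, of which 9 were found in 2 or more cells and 8 in 2 or more cell types. The largest of them held 7 transcripts in 4 oligodendrocytes at positions 2131 to 2138. It was followed by sites of 6 transcripts at 444 to 447 (3 cells), 735 to 738 (1 cell) and 794 to 803 (2 cells), and by 4 transcripts at 476 to 477 (3 cells). Sites of 3 transcripts at 779 to 780 and of 2 transcripts at 115 to 116 came next, the latter being 1 of 7 sites with 2 transcripts. After position 1000, a boundary chosen with the values in view, ended 17 transcripts, of which VLMC-1 had 1, VLMC-2 had none, and each oligodendrocyte pair had 8. Only 2 of the 17 began at the 5′ end. These were the longest Malat1 cDNAs, with 2130 bases in Oligo1-1 (2 to 2131, 1 read) and 2127 in Oligo5-1 (10 to 2136, 11 reads). A pair of transcripts of Oligo1-1 ran from 3338 to 4797, and starts from 3336 to 3340 were also found in 2 transcripts of Oligo5-1 that ended at 3581 and 3582.

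Most ends in the first part of a gene belonged to Malat1. The share of transcripts that end within the first 15% of their gene model was 4.003% over all genes (1432 of 35773), and 878 of the 1432 were Malat1 (61.3%). By cell Malat1 made up 66.7% and 53.7% of these early ends in the VLMCs, 60.3% and 80.6% in Oligo1 and 72.2% and 36.8% in Oligo5. Without Malat1, 1.59% of transcripts ended early (554 of 34878). The 15% scales with the gene model, which has 6983 bases for Malat1 but 2074 for Apod and 2571 for Trf. In a short model an early end leaves only a short cDNA, and short molecules were removed on a gel before sequencing. The part that model length and this removal played in the contrast was not tested. The next genes were Son, which encodes a splicing protein of nuclear speckles, with 31 of 51 transcripts, Mobp, a myelin protein, with 24 of 174, and Timm17a, part of the mitochondrial import machinery, with 14 of 18. When only ends inside annotated exons were placed, Malat1 made up 878 of 1188 (73.9%). Of the Malat1 transcripts, 2 ended within 20 bases of an annotated Malat1 3′ end (0.223%), and of the transcripts of other genes 60.5% did so at the ends of theirs. For Malat1 this was the end of a shorter annotated transcript, at position 757. None reached the 3′ end of the full-length transcript at 6983, and the furthest end lay at 6673.

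In other abundant names, the ends were arranged in different ways. Apod had 478 transcripts with 94.8% at 1 site, and Trf, the iron carrier transferrin, had 392 with 97.2% at 1 site. Of all Trf transcripts, 0.255% ended within 20 bases of an annotated end. The ribosomal RNA precursor Rn45s had 371 transcripts with 35.6% at its largest site and no gene model for positions. Mbp, myelin basic protein, had 272 transcripts with 93.0% at 1 site and 97.1% within 20 bases of an annotated end. Starts within 10 bases of an annotated start made up 77.8% of Apod, 68.1% of Trf and 29.04% of Mbp, against 84.5% of Malat1 by the same measure. The share of Malat1 was thus nearer to that of Apod and Trf than to that of Mbp.

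Of a list of 22 nuclear or other noncoding RNAs, 10 had any transcript, 70 in total against 895 of Malat1. Gas5, a host of small nucleolar RNAs, had 23 in 5 cells, Snhg11 had 19 (16 in Oligo5-2), Neat1, the scaffold of nuclear paraspeckles and the neighbour of Malat1, had 9 in 3 cells, Kcnq1ot1, an imprinted antisense RNA, had 8 and Meg3 had 5, all in Oligo5-2. The other 5 had 1 or 2 transcripts each. By cell the list summed to 1, 13, 15, 3, 7 and 31 transcripts. It was highest in Oligo5-2, the cell with the lowest share of Malat1 and with the neuron markers. Meg3 is in both this list and the neuron markers, so these 2 observations are not separate.

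Of the 43 genes with 60 or more transcripts, those whose profile over the 6 cells was most like that of Malat1 were Hsp90ab1, a chaperone, Ptn, a growth factor, and Plat, tissue plasminogen activator. The sum of absolute differences between profiles, each scaled to a sum of 1 over the 6 cells, was 0.301, 0.393 and 0.393. Hsp90ab1 made up 0.0855% and 0.171% of the VLMCs, 0.279% and 0.215% of Oligo1 and 0.204% and 0.177% of Oligo5. With 78 transcripts of Hsp90ab1, 142 of Ptn and 64 of Plat, these profiles carry a large counting error.

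The number of Malat1 transcripts depends on the UMIs. Over the 15 pairs of cells, 149 Malat1 UMIs were shared, where 76.1 would be shared if all tags were equally frequent, and 7 were identical in UMI and in both ends. How many shared UMIs would match in both ends by coincidence was not computed. The most frequent pair of ends alone held 10.5% of the transcripts. When UMIs of a cell that differ by 1 base and have the same ends within 5 bp were counted once, 710 of the 895 transcripts were left (56, 88, 219, 154, 124 and 69 by cell). Pairs of UMIs that differ by 1 base made up 0.534% to 0.791% of all pairs in a cell, and would make up 0.440% if all tags were equally frequent. Among pairs with the same ends they made up 0.483% to 1.72%. How many of the merged transcripts were separate molecules was not tested. The mean share of Malat1 was then 2.09%, and the same number of recurrent end sites, 3, was found, holding 93.8% of the transcripts on average over cells.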

How the data were processed

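Each deposited value is a count of reads behind a transcript, as merged by UMI by the authors and not normalized, and stands beside the positions of aligned blocks on mm10 (GRCm38). The authors required the cell barcode and a stretch of poly-A in a read, used GMAP for alignment and closed gaps under 40 bp. The submitters' processing notes name GSNAP. The 6 barcodes were matched to cells by the labels. Here block starts, which count from 0, were moved to positions from 1, and rows with the gene name Malat1 were used (transcripts of 2 or more genes held none). Ends were chained within 5 bp, and a site with 10 or more transcripts was called recurrent.

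Shares have Wilson 95% intervals. The 4 tests were exact sign-flip permutation tests over 6 cells, two-sided, with Benjamini-Hochberg adjustment and a threshold of 0.05. For an alternative, its p replaced that of its main test among the 4 before adjustment, and the number of alternatives was not adjusted for. The sequence windows and their 2 tests had been planned for a genome only, and were read from GENCODE M21 transcript sequences instead, for 20178 transcripts with 20 bases after the end and 33110 with 3 before the start. The genes named were Malat1, the 5 other names with the most transcripts (1 is not reported here), a list of 22 noncoding RNAs and the 3 genes most alike over cells, with sites and gaps named in order of size. The genes with the most early ends were chosen after their values were seen. The gene and the lists were chosen with earlier results of these data known. Of 6357 gene names, 6332 had a gene model. The alternatives were UMIs with 2 or more reads, merged UMIs, each run alone, other tolerances, minimums and windows, thinning each cell to 65 Malat1 transcripts (100 draws), and leaving out each cell. Keeping to 600 to 900 bases was added after seeing the data. The steps were tested on simulated data. Python 3.11.15, numpy 2.4.6, pandas 2.3.3, scipy 1.17.1 and matplotlib 3.10.9 were used.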

Additional observations from a re-analysis of the deposited data

How the results depend on the processing

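No paired analysis was possible because the groups of cells were not compared by a test, and replicate numbers do not tie a cell to an animal. The 4 tests pair Malat1 with other genes within each cell. The mean share of Malat1 (2.42%) was 3.40% among transcripts of the short run alone and 0.528% among those of the long run alone, and 2.25% to 2.65% when each cell was left out. The 3 recurrent sites became 7 with a minimum of 5 transcripts and 15 with ends chained within 0 bp, of which 13 were seen in all 3 cell types, holding 84.6% of transcripts on average. In the long run alone (53 transcripts) 2 sites were recurrent, 0 of them in all 3 cell types, and the mean share per cell was 56.6%, where each VLMC had 1 transcript, near 231. The 3 main sites held 48 of these 53 (90.6%). Among UMIs with 2 or more reads, 2 of 3 were seen in all 3 cell types and the mean share with a gap (0.479%) was 1.26%. Leaving out a cell gave 3 sites each time, holding 93.7% to 95.7%, and 0.325% to 0.575% with a gap.

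The difference at A-rich ends (2.00 points) was -1.31 among UMIs with 2 or more reads, -4.69 against genes with 10 or more transcripts, -21.0 with a run of 6 A, 49.3 with 12 of 20 A, 19.8 in the long run alone and 7.82 with each end site counted once. It ranged from -1.59, without VLMC-2, to 3.93 when each cell was left out. The difference at G-rich starts (13.8) was -3.51 with 3 G and -1.12 in the long run alone (4 cells), and 11.9 to 15.4 when each cell was left out. The difference in single-read UMIs (-1.24) was -2.20 to 0.0105 when each cell was left out, the highest without Oligo5-1. At 600 to 900 bases it was -5.63 (exact permutation p = 0.0625). In the long run alone it was 27.4 and passed the threshold in the opposite direction (exact permutation p = 0.0312). The adjusted p was 0.0417, with this p in place of the main one among the 4 tests. This 27.4 and the 19.8 at A-rich ends rest on 1, 1, 22, 15, 5 and 9 Malat1 transcripts (VLMC-1 to Oligo5-2). No call is drawn from them. The long-run-only difference (-22.5) ranged from -25.2 to -19.9 when each cell was left out, where the smallest possible p is 0.0625. The cause of these changes was not tested. Depth limits the site shares of VLMC-1 and Oligo5-2 most, with 65 and 80 Malat1 transcripts.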
